A study of Homo sapiens with 8 samples.

Results

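The departure from additivity of all-trans retinoic acid (ATRA) and L-ascorbic acid (LAA) was measured across the transcriptome of U-937 cells. For each gene it is the effect of LAA in the presence of ATRA minus the effect of LAA in its absence, on the log2 scale, which equals the effect of ATRA with LAA minus its effect without LAA. It is called the interaction here. At 0 the log2 effects of the compounds add up, and at 1 the level with both compounds is 2 times the level that additive log2 effects give. All genes that passed a filter on low counts were used, 14995 of the 61125 listed, of which 25843 had at least 1 count.

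U-937 is a human pro-monocytic leukemia line. The 4 groups were vehicle (PBS with DMSO, the solvents of the compounds), 250 µM LAA, 1 µM ATRA, and 250 µM LAA with 1 µM ATRA, called LAA+ATRA. Cells were collected after 72 h in each group, and each group had 2 libraries of poly-T enriched RNA, 8 in all. The labels do not say that replicates came from separate cultures, so every p-value rests on the variation among these libraries alone, and that variation may be technical.

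Library totals ran from 18462552 to 24166770 estimated counts. Of the 7 myeloid markers examined, SPI1, CD33, LYZ, CD4, ITGB2 and CSF3R were expressed in every library, at 44.9 CPM or more (estimated counts per 1000000, scaled between libraries by TMM), whereas MPO did not exceed 0.839 CPM. Among markers of other cells, CD3E, MS4A1, HBB and PF4 had no counts, and EPCAM, VWF and COL1A1 stayed below 1 CPM. The median difference between the replicates of a group was 0.0974 on the log2 scale for vehicle, 0.110 for LAA, 0.171 for ATRA and 0.166 for LAA+ATRA, over 10977 genes of at least 5 CPM in a group. The groups with ATRA were thus the less reproducible ones.

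ATRA is the ligand of the retinoic acid receptors, nuclear receptors that switch from repression to activation of their target genes when ATRA binds, and it drives myeloid leukemia cells toward granulocytes or monocytes. Ascorbate keeps iron reduced in 2-oxoglutarate-dependent dioxygenases, among them the TET enzymes, which oxidise methylated cytosine in DNA. A pair of such compounds can act on the same genes, and the interaction asks for each gene whether the response to one compound depends on the other.

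The gene of smallest p for the interaction, EIF3CL, is a near-identical copy of EIF3C. Both encode the c subunit of eIF3, the multi-subunit initiation factor that binds the small ribosomal subunit and helps to bring mRNA to it. In GENCODE 29 on GRCh38, EIF3C lies at chr16:28688558-28735730 on the plus strand and EIF3CL at chr16:28379579-28403879 on the minus strand. Transcript EIF3CL-201, of 3085 bases, was aligned with EIF3C-201, of 3145 bases, and all 3082 aligned bases were identical. The only gap within the alignment was 3 bases in the coding part. The stretch around it is shown because it is what tells the aligned parts of these transcripts apart, from chr16:28723246-28723269 on the plus strand for EIF3C and from chr16:28392034-28392060 on the minus strand for EIF3CL, 5′ to 3′. Capitals mark the additional codon of EIF3CL, at 1 of several equivalent places in the repeat.
EIF3C: aagcgcctggatgaggaggaggag
EIF3CL: aagcgcctggatGAGgaggaggaggag
Of the 3055 stretches of 31 bases in EIF3CL-201, 3036 (99.38%) also occurred in transcripts of EIF3C. The estimated counts of the copies therefore depend on how the authors' quantification divided reads between them.

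EIF3CL had no estimated counts with ATRA alone and was counted in every other group. Its level was 22.5 and 34.3 CPM in the vehicle libraries, 33.4 and 15.4 with LAA, 0 and 0 with ATRA, and 30.7 and 37.9 with LAA+ATRA. The estimated counts behind these values were 468 and 708, then 672 and 293, then 0 and 0, then 549 and 753. Both libraries with ATRA alone lay below all 6 others, and the LAA libraries overlapped those of vehicle. Against a floor of 3 counts over the ATRA group, the estimate with ATRA alone was at least 391-fold lower than in vehicle. The estimate with LAA+ATRA was at least 471.5-fold higher than with ATRA alone, which puts the interaction of the estimates at 550-fold or more. These bounds cover counting error only and not the division of reads between the copies. The fitted interaction was 12.64 ± 1.02 (log2, standard error), with an adjusted p of 0.00106 in the edgeR quasi-likelihood test. The fitted size depends on the small count added to the zeros and is no bound. EIF3CL was the 1 gene called among all 14995 at an adjusted p under 0.05 (0.00667%), and no gene was called in the negative direction. An unadjusted p under 0.05 was found for 747 genes (4.98%), about the share that this threshold gives when no gene has an interaction. DESeq2 called 13. Without ATRA replicate 1 edgeR called 15 genes and without ATRA replicate 2 it called 4, EIF3CL among them each time.

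EIF3C, the more abundant copy, showed no comparable pattern. It stood at 475 and 471 CPM in vehicle, 429 and 495 with LAA, 334 and 272 with ATRA, and 268 and 279 with LAA+ATRA. The libraries with ATRA lay below those without it, whether or not LAA was present. The interaction of EIF3C was -0.11 ± 0.16, with an adjusted p of 0.998 in edgeR. EIF3CL took 4.53% and 6.79% of the estimated counts of the pair in vehicle, 7.21% and 3.02% with LAA, 0% and 0% with ATRA, and 10.3% and 11.95% with LAA+ATRA. The share thus went from none to its highest values when LAA was added to ATRA.

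With the counts of both copies added together no such departure was seen. EIF3CL held at most 11.95% of the estimated counts of the pair in any library, so the sum is mostly EIF3C. It therefore cannot tell a change of EIF3CL itself from a different division of reads between the copies, which was not tested. The sum stood at 497 and 506 CPM in vehicle, 463 and 510 with LAA, 334 and 272 with ATRA, and 299 and 317 with LAA+ATRA. The last of these groups lay inside the range of the ATRA libraries. The interaction of the sum was 0.07 ± 0.16, with an adjusted p of 1 in edgeR, and in that fit 0 genes were called. The direction of the sum turned when LAA replicate 1 or ATRA replicate 2 was left out, with values of -0.002 and -0.073. Deposited FPKM values, which also divide by a gene length that differs between libraries, put EIF3C at 294 and 326 with ATRA and at 377 and 476 with LAA+ATRA, an order that the CPM did not have. On log2(FPKM + 1) EIF3CL was no longer called (4.01, adjusted p = 0.122 in limma), and on log2(FPKM + 0.1) it was (7.27, adjusted p = 0.0143).

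**Figure D1:**
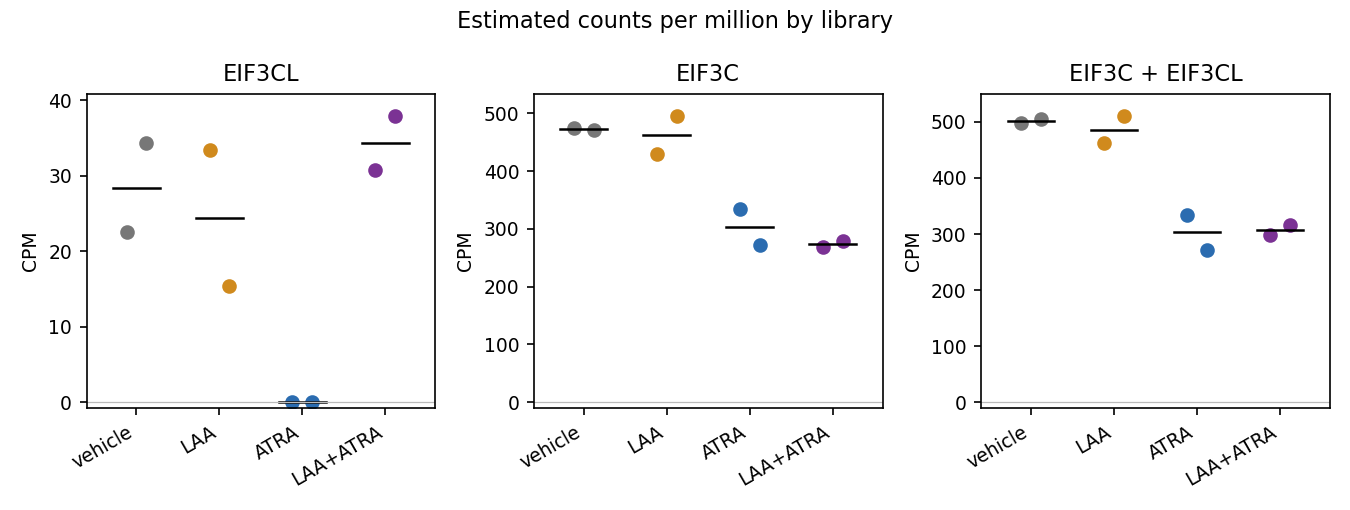
Level of EIF3CL, EIF3C and their sum in each library, in CPM on linear axes of different range; points are the 2 libraries of a group and bars their mean. EIF3CL was at 0 in both ATRA libraries, whereas EIF3C and the sum were lower in all 4 libraries with ATRA than in the 4 without it.

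The other subunits of eIF3 give the scale of that departure. All 14 listed genes of the complex were kept, and 13 were not called. Those 13 interactions lay between -0.11 (EIF3C) and 0.14 (EIF3E), within about 1 standard error of 0. The median of the list was 0.06, and -0.01 over all genes.

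Over all 14995 genes the interaction had a median of -0.012 and lay between -0.828 and 0.844 from the 5th to the 95th percentile, above 1 in 593 genes and below -1 in 592. Its median absolute value was 0.177 and the median standard error 0.217. Over the 10977 genes of at least 5 CPM in a group, the interaction had a median of -0.012, quartiles of -0.147 and 0.121, and a range from -0.398 to 0.377 between the 5th and 95th percentiles. Its median absolute value of 0.135 was smaller than the median standard error of 0.183. It exceeded 1 in 52 of these genes and lay below -1 in 67. Of all 14995 genes, 7201 (48%) had an interaction above 0 and 7794 (52%) below it.

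The effects that enter the interaction differed widely in size. ATRA alone changed 6428 genes against vehicle at an adjusted p under 0.05 in edgeR (42.9%), and ATRA on top of LAA changed 5451 against LAA (36.4%). LAA alone changed 4 genes against vehicle (0.0267%), and LAA on top of ATRA changed 152 against ATRA (1.01%). These counts do not show that the effects differ between the states, since the interaction called 1 gene. The effects of ATRA without and with LAA share no library, and across the 10977 genes they had a Pearson correlation of 0.933 and a Spearman correlation of 0.917. The effects of LAA without and with ATRA, which share none either, had correlations of 0.477 and 0.585. Over all 14995 genes, low counts included, the correlations were 0.733 and 0.8 for ATRA and 0.177 and 0.394 for LAA. These describe genes, which are not independent replicates.

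The range of ATRA effects was somewhat narrower in the presence of LAA. Between the 5th and 95th percentiles they ran from -1.017 to 1.300 without LAA and from -0.925 to 1.126 with it, a ratio of widths of 0.885. This ratio stayed between 0.861 and 0.913 in every other fit, including those that left out 1 library. It has no test, since genes are not replicates.

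**Figure D2:**
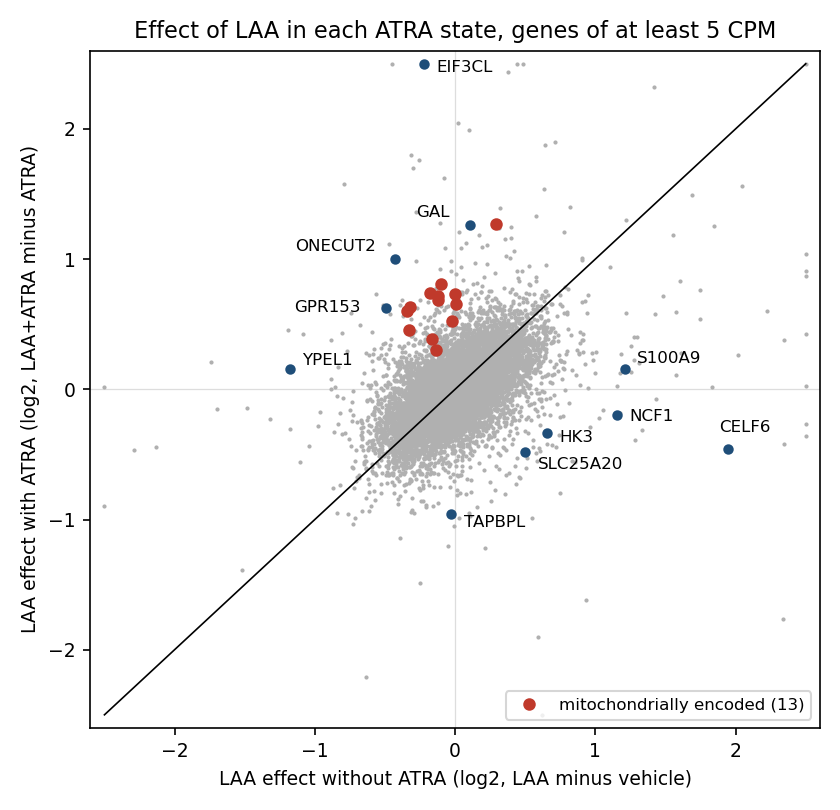
Effect of LAA without ATRA (horizontal) and with ATRA (vertical), both as log2 differences, for the 10977 genes of at least 5 CPM in a group; the line marks equal effects and values beyond 2.5 are drawn at the edge. The 13 mitochondrially encoded mRNAs (red) lie above the line, as do EIF3CL, drawn at the edge, and GAL, and NCF1, HK3 and CELF6 lie below it.

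The genes of smallest unadjusted p beside EIF3CL, among those with a symbol and at least 5 CPM in a group, were examined by direction. None of them was called by edgeR, with adjusted p from 0.383 to 0.662, and since they were ranked on the interaction, their group values are a description. On the positive side, where the level with both compounds exceeded the level that additive log2 effects give, a recurrent pattern was a gene lower with ATRA. Of the 10 leading positive genes, EIF3CL included, 7 had both ATRA libraries below both vehicle libraries, and 9 had both LAA+ATRA libraries above both ATRA libraries. Over all genes, ATRA lay wholly below vehicle in 35.9% and LAA+ATRA wholly above ATRA in 21.2%.

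GAL, which encodes the neuropeptide galanin, led this side after EIF3CL. It stood at 52.1 and 56.0 CPM in vehicle, 56.2 and 60.2 with LAA, 3.26 and 4.53 with ATRA, and 9.06 and 9.81 with LAA+ATRA. All 4 libraries with ATRA were lower than the 4 without it, and the LAA+ATRA libraries lay above the ATRA ones. Additive log2 effects give 4.20 CPM for LAA+ATRA, and 9.43 CPM was observed as the mean. The interaction was 1.15 ± 0.21, with an adjusted p of 0.383 in edgeR and 0.00864 in DESeq2.

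ONECUT2, a homeobox transcription factor, stood at 15.3 and 14.8 CPM in vehicle, 11.1 and 11.3 with LAA, 1.55 and 2.11 with ATRA, and 3.69 and 3.72 with LAA+ATRA. The LAA libraries lay below vehicle without ATRA and above ATRA alone with it. Its interaction was 1.43 ± 0.28. GPR153, an orphan G protein-coupled receptor, stood at 87.4 and 76.5 CPM in vehicle, 54.1 and 62.4 with LAA, 12.6 and 8.80 with ATRA, and 18.7 and 14.1 with LAA+ATRA. Its interaction was 1.12 ± 0.24, and DESeq2 called it (adjusted p = 0.02).

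Other positive genes had other patterns. YPEL1, of the yippee-like family, stood at 14.0 and 13.5 CPM in vehicle and between 4.94 and 7.20 CPM in all 6 treated libraries. Either compound alone gave about the level that both gave together, and the interaction was 1.33 ± 0.29. PCBP3, which encodes a poly(rC)-binding protein, stood at 41.3 and 47.3 CPM in vehicle, 36.4 and 38.0 with LAA, 26.4 and 22.7 with ATRA, and 35.1 and 34.3 with LAA+ATRA. Here the lowest libraries were those with ATRA alone, and the interaction was 0.75 ± 0.17. CST7, the inhibitor of cathepsins cystatin F, was named after its values were seen because DESeq2 called it (adjusted p = 0.0193). It stood at 1198 and 1246 CPM in vehicle, 1109 and 1131 with LAA, 343 and 354 with ATRA, and 492 and 442 with LAA+ATRA, with an interaction of 0.55 ± 0.14 in edgeR.

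A pair of the leading positive genes rest on uncertain counts. TUBA1B-AS1, the antisense gene of the tubulin gene TUBA1B, had 53.6 and 345 CPM in the LAA+ATRA libraries and from 5.20 to 33.7 CPM in the 6 others. Its interaction of 5.33 ± 1.22 was 3.43 without LAA+ATRA replicate 2, and the strand setting of the authors' counting is not given in the sources used here, so reads of the antisense gene and its partner cannot be told apart. MTND2P28 is a nuclear pseudogene of the mitochondrial gene MT-ND2, with which it shared 56.8% of its 31-base stretches. It stood at 13.9 and 21.5 CPM with LAA+ATRA and between 4.83 and 9.13 CPM in the 6 others, and its interaction was 1.64 ± 0.39. Without ATRA replicate 1 it was 2.17, with an adjusted p of 0.0487 in edgeR.

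On the negative side, where the level with both compounds fell short of additive log2 effects, the leading genes were higher with ATRA. All 10 had both ATRA libraries above both vehicle libraries, 9 had LAA above vehicle in the same sense, and 7 had LAA+ATRA below ATRA. Over all genes, ATRA lay wholly above vehicle in 36%, LAA wholly above vehicle in 28.6% and LAA+ATRA wholly below ATRA in 22.9%. The 10 genes were ranked on a difference that these values enter, so the counts describe them and test nothing.

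HK3, the hexokinase typical of myeloid cells, stood at 5.20 and 5.09 CPM in vehicle, 7.59 and 8.67 with LAA, 327 and 305 with ATRA, and 273 and 226 with LAA+ATRA. LAA libraries lay above vehicle without ATRA and below ATRA alone with it. The mean of LAA+ATRA was 250 CPM against 499 CPM from additive log2 effects and 319 CPM from additive changes in CPM, so it was the lower on both scales. The interaction was -0.996 ± 0.191, with an adjusted p of 0.383 in edgeR and 0.00556 in DESeq2.

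NCF1, the organizer subunit of the phagocyte NADPH oxidase, stood at 1.73 and 1.60 CPM in vehicle, 4.17 and 3.26 with LAA, 181 and 141 with ATRA, and 152 and 129 with LAA+ATRA. The LAA+ATRA libraries overlapped those of ATRA, while LAA alone lay above vehicle. Its interaction was -1.35 ± 0.28, and DESeq2 called it (adjusted p = 0.00864). NCF1 has the copies NCF1B and NCF1C, which held 91.65% of the 31-base stretches of its transcript NCF1-201. With the 3 genes added together the interaction was -1.19 ± 0.28, in the same direction.

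S100A9, a subunit of the calcium-binding protein calprotectin, stood at 3.56 and 3.30 CPM in vehicle, 7.35 and 8.56 with LAA, 46.5 and 62.7 with ATRA, and 63.4 and 58.6 with LAA+ATRA. LAA alone was above vehicle in both libraries, and LAA+ATRA overlapped ATRA. The interaction was -1.05 ± 0.24 on the log2 scale. Additive changes in CPM give 59.1 CPM for LAA+ATRA, slightly less than the 61.0 CPM observed, so the sign is the opposite on that scale. Without ATRA replicate 1, S100A9 was called by edgeR (-1.24, adjusted p = 0.0487).

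TAPBPL, the tapasin-related protein of peptide loading on class I molecules, is the 1 leading negative gene whose LAA libraries did not lie above vehicle. It stood at 4.43 and 3.74 CPM in vehicle, 4.32 and 3.68 with LAA, 39.6 and 38.8 with ATRA, and 20.5 and 19.8 with LAA+ATRA. The LAA and vehicle libraries overlapped, and the LAA+ATRA libraries lay far below those of ATRA. The interaction was -0.93 ± 0.22. SLC25A20, the carnitine-acylcarnitine carrier of mitochondria, stood at 9.43 and 7.86 CPM in vehicle, 12.6 and 11.9 with LAA, 34.1 and 37.6 with ATRA, and 26.5 and 24.9 with LAA+ATRA, with an interaction of -0.98 ± 0.19. All 4 libraries with ATRA were above the others, and those with LAA+ATRA below those with ATRA alone. SPRY2, an inhibitor of receptor tyrosine kinase signalling, had 50.7 and 50.4 CPM with ATRA and 35.8 and 37.1 with LAA+ATRA, against 17.9 and 17.9 in vehicle and 19.9 and 19.4 with LAA.

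COL9A2, a chain of collagen IX, and ZFYVE27, which encodes protrudin of the endoplasmic reticulum, had interactions of -0.58 ± 0.14 and -0.67 ± 0.15. In both, LAA alone was above vehicle in both libraries. CELF6, an RNA-binding protein, had -2.40 ± 0.59 on levels of at most 12.2 CPM. ITGB1P1, a pseudogene of the integrin gene ITGB1, had -4.55 ± 0.98, but all of its 31-base stretches also occurred in ITGB1. With 0 counts in LAA+ATRA replicate 2, the fitted value is no stable fold: it was -10.69 without LAA+ATRA replicate 1 and -3.51 without replicate 2. Summed with ITGB1 its interaction was -0.24 ± 0.14.

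**Figure D3:**
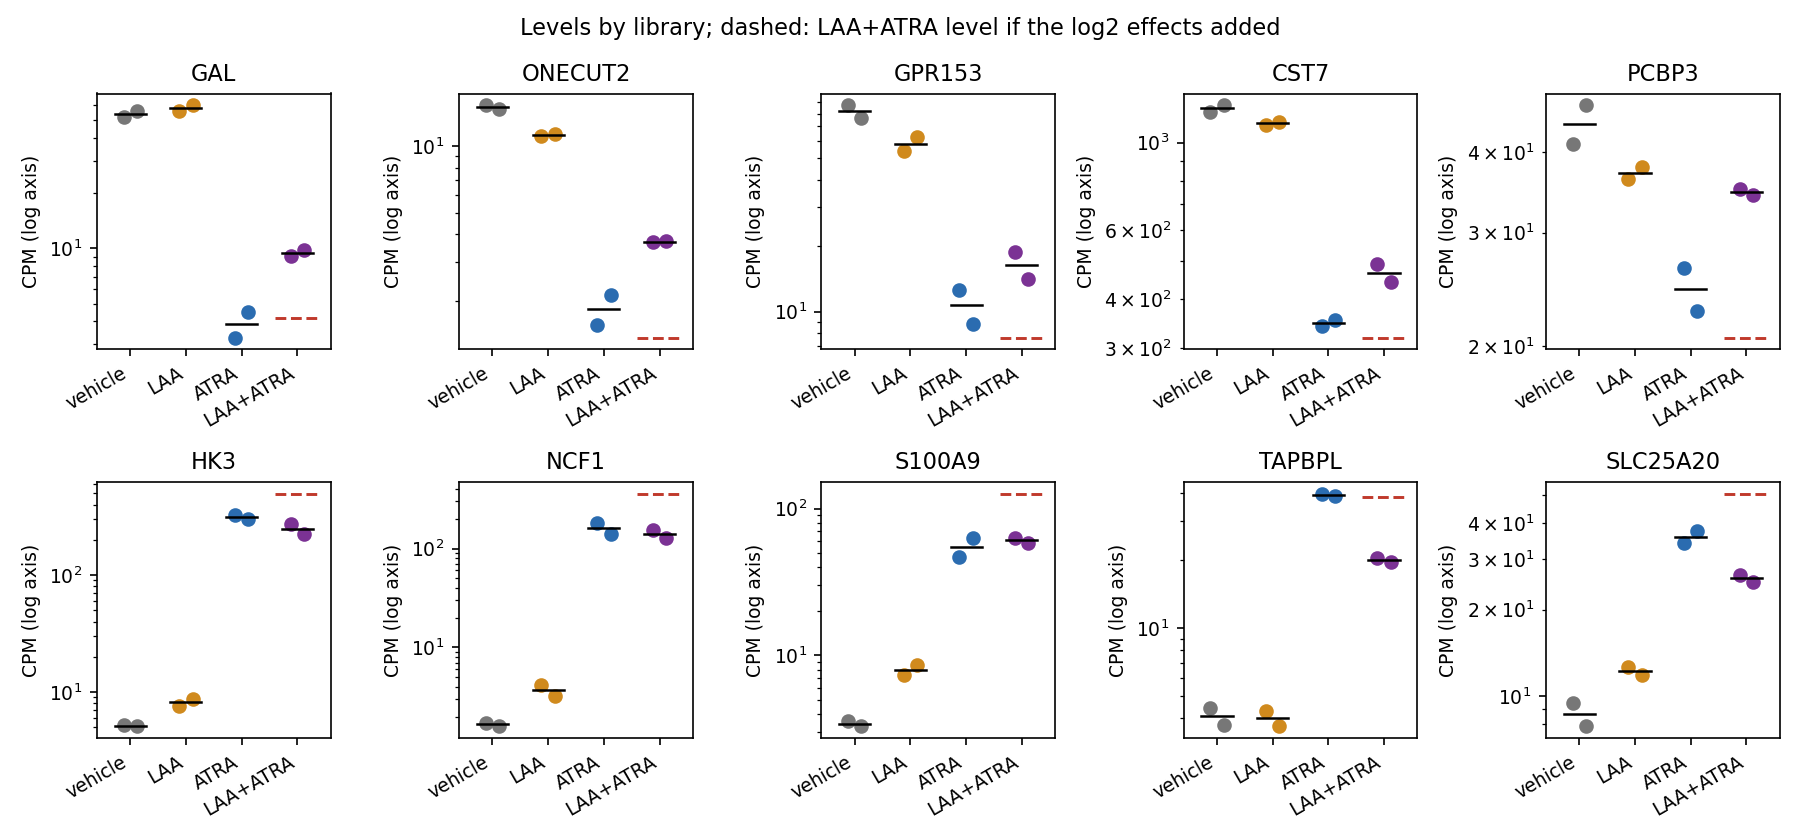
Levels in CPM on log axes for 5 genes of positive (upper row) and 5 of negative interaction (lower row); points are the 2 libraries of a group, bars their mean, and the dashed line the LAA+ATRA level that additive log2 effects give. The LAA+ATRA libraries lie above the dashed line in the upper row (GAL at 9.06 and 9.81 CPM against 4.20) and below it in the lower row (HK3 at 273 and 226 CPM against 499).

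Whether effects add depends on the scale. Of all 14995 genes, 1447 (9.65%) had the opposite sign when changes in CPM were added in place of log2 effects. The share was 1.74% among the 747 genes with an unadjusted p under 0.05, and S100A9 was the 1 such gene of the 20 leading ones. ONECUT2, GPR153, YPEL1 and EIF3CL had a negative expected level on the CPM scale. The falls of their means with ATRA and with LAA together exceeded the vehicle level, so only the log2 expectation is a possible level for them.

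Of the 28 gene lists, the mitochondrially encoded mRNAs had the median farthest from 0. The mitochondrial genome encodes 13 proteins, subunits of respiratory complexes and of ATP synthase, which are transcribed in long precursors. All 13 had a positive interaction, from 0.44 (MT-CO3) to 0.98 (MT-ATP8), with a median of 0.81 against -0.01 over all genes. Of the 13, 12 had an unadjusted p under 0.05, against 2.38% of all genes in that direction, and none was called by edgeR. DESeq2 called MT-ND2, MT-ND4, MT-ND6 and MT-CO1, and the mitochondrial ribosomal RNA MT-RNR2, with adjusted p from 0.000171 to 0.0286. The 13 mRNAs come from common precursors, so they are not independent of each other.

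Together these mRNAs made up 3.45% and 3.30% of the estimated counts in the vehicle libraries, 3.07% and 2.73% with LAA, 3.81% and 3.31% with ATRA, and 4.16% and 5.72% with LAA+ATRA. LAA libraries were thus the lowest and LAA+ATRA libraries the highest, with no overlap between LAA and vehicle or between LAA+ATRA and ATRA. The median effect of LAA over the 13 genes was -0.12 without ATRA and 0.66 with it. In 12 genes both LAA+ATRA libraries lay above both ATRA libraries, as in 21.2% of all genes. In 6 of these both LAA libraries also lay below both vehicle libraries, an arrangement that 1.81% of all genes had. From bulk RNA, a larger share of cells rich in these transcripts and more of them per cell cannot be told apart.

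MT-ND6, a subunit of complex I and the mRNA encoded on the other strand of the mitochondrial genome, had the smallest p of the group. It stood at 302 and 307 CPM in vehicle, 310 and 298 with LAA, 459 and 406 with ATRA, and 711 and 728 with LAA+ATRA. The LAA libraries bracketed vehicle, and the LAA+ATRA libraries lay above all others. Additive log2 effects give 432 CPM, and 719 CPM was the observed mean. The interaction was 0.74 ± 0.14, with an adjusted p of 0.383 in edgeR. As the strand setting of the authors' counting is not given, reads of MT-ND6 and of the opposite strand cannot be told apart. MT-ND4, another complex I subunit, stood at 4989 and 5115 CPM in vehicle, 4705 and 4229 with LAA, 4462 and 3695 with ATRA, and 5896 and 7746 with LAA+ATRA. Each compound alone was below vehicle in both libraries and both together above it, and the interaction was 0.92 ± 0.19.

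The other complex I subunits were MT-ND1 (0.84 ± 0.24), MT-ND2 (0.81 ± 0.20), MT-ND3 (0.55 ± 0.15), MT-ND4L (0.94 ± 0.42) and MT-ND5 (0.95 ± 0.25). MT-CYB, the cytochrome b of complex III, had 0.91 ± 0.24. The cytochrome oxidase subunits MT-CO1 (0.79 ± 0.19) and MT-CO2 (0.56 ± 0.20) and the ATP synthase subunit MT-ATP6 (0.65 ± 0.19) had lower or similar values. MT-ATP8, the least abundant, had the largest interaction and also the largest error, 0.98 ± 0.57. MT-RNR2, the ribosomal RNA, had 0.73 ± 0.18.

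Much of the size of this group rests on 1 library. LAA+ATRA replicate 2 had the highest mitochondrial share of all 8, 5.72%, against 4.16% in replicate 1. Without it the median interaction of the 13 genes was 0.526, and without LAA+ATRA replicate 1 it was 1.06. Without ATRA replicate 1 edgeR called MT-ND6 (0.84, adjusted p = 0.0487) and MT-ATP8 (2.15, adjusted p = 0.0347). All 13 stayed positive when any 1 library was left out and in every other fit. The list of nuclear genes of oxidative phosphorylation, which also holds complex II and cytochrome c, had other values. Of its 25 genes, 6 had a positive and 19 a negative interaction (52% negative over all genes), with a median of -0.07.

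**Figure D4:**
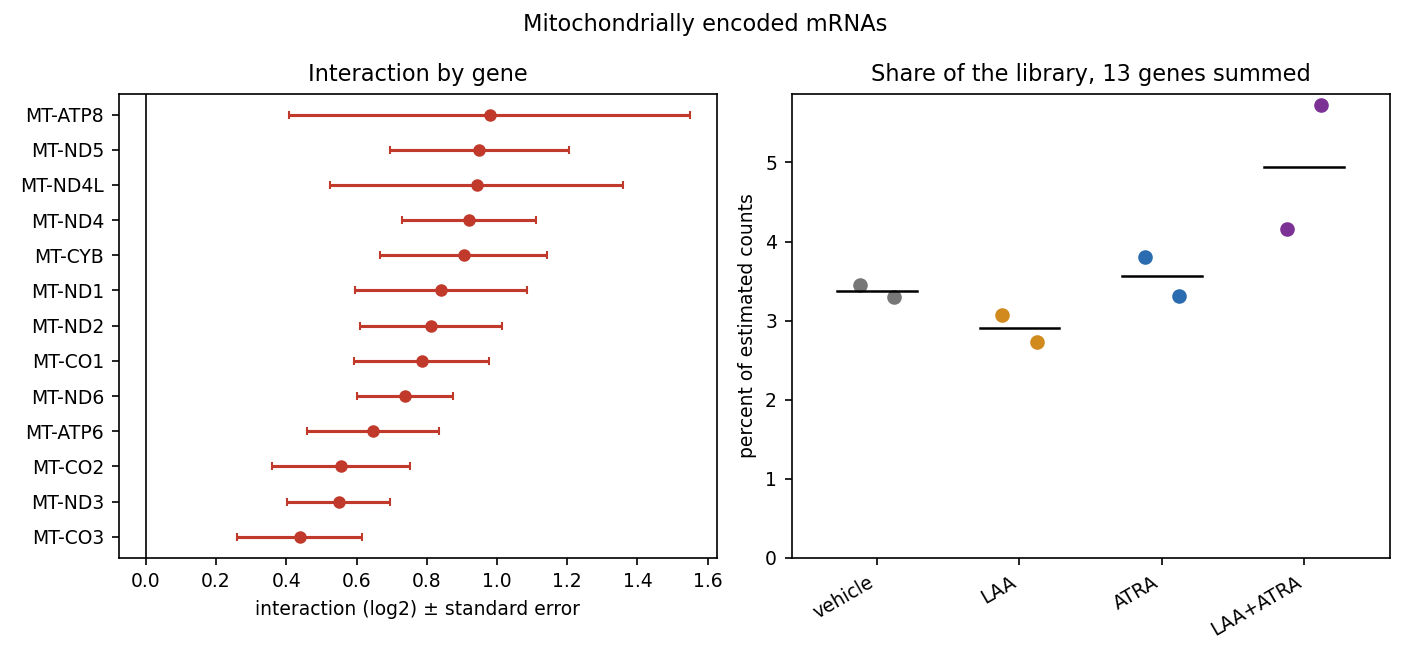
Left, interaction (log2) with its standard error for the 13 mitochondrially encoded mRNAs, all above 0, from 0.44 for MT-CO3 to 0.98 for MT-ATP8. Right, their summed share of the estimated counts in each library in percent, with the mean of each group as a bar; the LAA+ATRA libraries, at 4.16% and 5.72%, are the highest of the 8 and lie apart from each other.

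The 5 lists of myeloid genes did not share a direction, beside 48% positive and 52% negative over all genes. NADPH oxidase genes and monocyte and neutrophil markers were mostly negative, whereas 12 of 19 myeloid transcription factors (median 0.04) and 11 of 19 progenitor and primary granule genes (median 0.07) were positive. Of the 8 NADPH oxidase genes, which encode the enzyme of the phagocyte oxidative burst, 6 had a negative interaction and the median was -0.26. At an unadjusted p under 0.05 stood NCF1, the membrane subunit CYBB (-0.73 ± 0.22) and the cytosolic subunit NCF4 (-0.44 ± 0.15), against 2.6% of all genes in that direction, and none was called. CYBB stood at 3.13 and 4.03 CPM in vehicle, 5.26 and 5.99 with LAA, 134 and 123 with ATRA, and 109 and 135 with LAA+ATRA. The LAA libraries lay above vehicle, and LAA+ATRA overlapped ATRA. CYBA, the partner of CYBB in the membrane, had -0.25 ± 0.20, with the opposite sign on the CPM scale. Over the 8 genes the median effect of LAA was 0.23 without ATRA and -0.05 with it.

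Integrins and adhesion receptors had a negative interaction in 15 of 18 genes (52% over all genes), with a median of -0.19. At an unadjusted p under 0.05 were 5 negative genes, against 2.6% of all genes in that direction. ITGAM, the alpha chain of the complement receptor Mac-1 and a marker of myeloid maturation, stood at 10.2 and 11.5 CPM in vehicle, 11.6 and 14.0 with LAA, 154 and 122 with ATRA, and 115 and 99.0 with LAA+ATRA. LAA lay just above vehicle without ATRA and below ATRA alone with it. Its interaction was -0.60 ± 0.21, with an adjusted p of 0.856 in edgeR. Its beta chain ITGB2 stood at 793 and 819 CPM in vehicle, 704 and 805 with LAA, 2453 and 2210 with ATRA, and 1743 and 1387 with LAA+ATRA, with an interaction of -0.48 ± 0.17.

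Of the 22 listed monocyte and macrophage markers 16 were kept, and 13 of these had a negative interaction (52% over all genes), with a median of -0.18. CTSD, the lysosomal protease cathepsin D and the most abundant of them, had -0.14 ± 0.14. Of the 22 neutrophil and granulocyte markers 13 were kept, 10 of them negative, with a median of -0.27. CSF3R, the receptor of granulocyte colony-stimulating factor, had -0.09 ± 0.16, and its sign turned in the FPKM fits and without ATRA replicate 1. Apoptosis regulators were negative in 22 of 28, with a median of -0.13, and MCL1, an inhibitor of apoptosis, had -0.14 ± 0.14. In these 3 lists and the 2 before them, no gene was called.

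Lists of proliferation genes had small medians of either sign. Over all genes, 48% had a positive and 52% a negative interaction. DNA replication genes had a positive interaction in 21 of 30, with a median of 0.11, and genes of G2 and mitosis in 18 of 25, with a median of 0.08. MYC targets and ribosome biogenesis genes were negative in 19 of 29, with a median of -0.09, and genes of G1 and cell cycle inhibition in 11 of 20, with a median of -0.02. No gene of these 4 lists was called. CDT1, which licenses origins of replication and was chosen after its values were seen, stood at 202 and 227 CPM in vehicle, 197 and 191 with LAA, 102 and 73.6 with ATRA, and 141 and 123 with LAA+ATRA. LAA was slightly below vehicle and, with ATRA present, above ATRA alone, and the interaction was 0.73 ± 0.20. Without ATRA replicate 1, edgeR called it (0.99, adjusted p = 0.0487). PCNA, the sliding clamp of replication, had 0.03 ± 0.14, with a sign that turned when LAA replicate 2 or ATRA replicate 1 was left out. TPX2, a spindle assembly factor, had 0.29 ± 0.13. MYC, chosen after its values were seen, stood at 390 and 361 CPM in vehicle, 340 and 387 with LAA, 75.7 and 69.9 with ATRA, and 91.9 and 84.7 with LAA+ATRA, with an interaction of 0.33 ± 0.15.

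**Figure D5:**
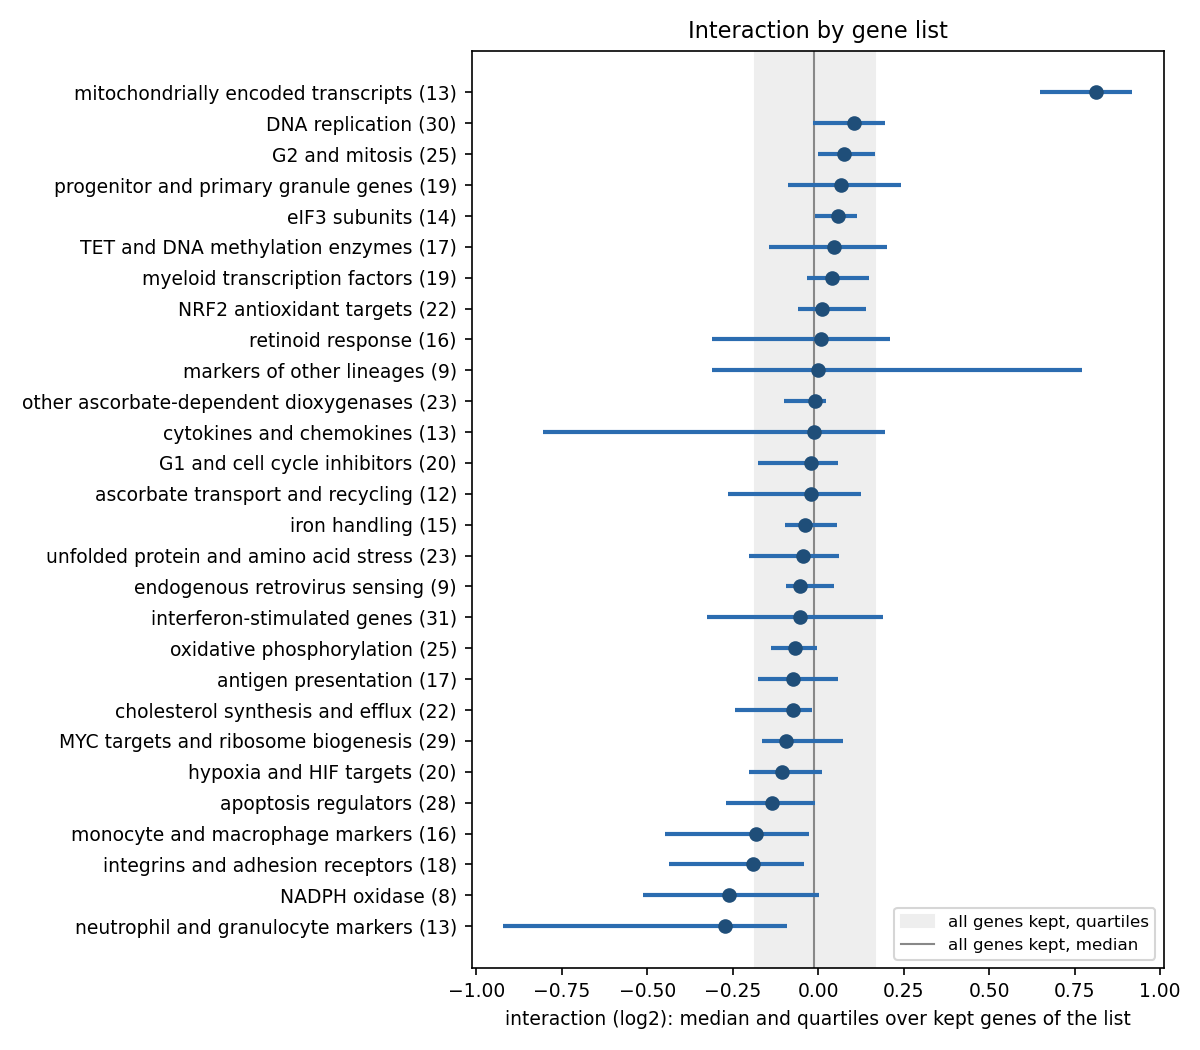
Median (point) and quartiles (line) of the interaction (log2) over the kept genes of 28 lists, their number in parentheses, beside the median (grey line) and quartiles (grey band) of all 14995 genes. The mitochondrially encoded transcripts stand at 0.81, and neutrophil and granulocyte markers lie lowest, at -0.27, while myeloid transcription factors stand at 0.04.

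None of the enzymes and receptors that the compounds act on was called. TET1 had an interaction of -0.14 ± 0.59, TET2 0.35 ± 0.29 and TET3 0.20 ± 0.18, with adjusted p from 0.987 to 1 in edgeR. TET2 stood at 8.66 and 6.69 CPM in vehicle, 6.997 and 5.10 with LAA, 9.68 and 8.98 with ATRA, and 8.78 and 9.96 with LAA+ATRA. The LAA libraries overlapped those of vehicle, and the LAA+ATRA libraries overlapped those of ATRA. TET1 was at most 5.05 CPM, and its sign turned without ATRA replicate 1 or LAA+ATRA replicate 1. These are levels of mRNA, which say nothing of enzyme activity.

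Over the list of TET and DNA methylation enzymes, 10 of 17 genes had a positive interaction (48% over all genes), with a median of 0.04. IDH2, which makes 2-oxoglutarate in mitochondria and was the most abundant of them, had 0.29 ± 0.15. The other ascorbate-dependent dioxygenases were positive in 8 of 23 kept genes, with a median of -0.01 and no gene at an unadjusted p under 0.05 in either direction. Ascorbate transport and recycling genes were positive in 6 of 12, with a median of -0.02. SLC23A2, the sodium-dependent vitamin C transporter of most cells, had 0.20 ± 0.14, and GSTO1, a glutathione transferase that can reduce dehydroascorbate, -0.20 ± 0.28.

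Of the 16 kept genes of the retinoid response, 8 had a positive and 8 a negative interaction, with a median of 0.01. RARA, the retinoic acid receptor alpha, had 0.08 ± 0.20. RARB, itself a classical target of retinoic acid receptors, stood at 0.626 and 0.922 CPM in vehicle, 0.0993 and 0.210 with LAA, 5.97 and 7.72 with ATRA, and 5.14 and 4.78 with LAA+ATRA. LAA was below the matching group in both states, but the levels with LAA alone were near the floor of 3 counts and give no firm fold. Its interaction was 1.82 ± 0.61, with an adjusted p of 0.843 in edgeR, and the sign was the opposite on the CPM scale and on log2(FPKM + 1).

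CD38, an ectoenzyme of NAD metabolism and a retinoid target, stood at 1.69 and 2.13 CPM in vehicle, 1.29 and 1.42 with LAA, 253 and 227 with ATRA, and 169 and 192 with LAA+ATRA. LAA was below the matching group in both states by a similar factor, and the interaction was 0.09 ± 0.26. DHRS3, a retinaldehyde reductase, and HIC1, a transcriptional repressor, were chosen after their values were seen as retinoid genes of opposite direction. DHRS3 had 0.77 ± 0.22 and HIC1 -1.41 ± 0.49, and neither was called. HIC1 was at most 1.16 CPM in the 4 libraries without ATRA.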

How the data were processed

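RNA-sequencing of 8 libraries was used, 2 per group. The submitters' processing notes name Salmon 1.8.0, DESeq2 1.36.0 and, as builds, GRCh38 with hg38. Annotation release and strand setting were not given in the sources used here. Deposited by the authors were estimated counts per gene, not scaled between libraries, and FPKM values, scaled to gene length and library size. Estimated counts were rounded, which changed 16.5% of values. Genes were filtered with filterByExpr and libraries scaled by TMM in edgeR 4.0.16 (R 4.3.3). A quasi-likelihood model with 4 group means was fitted to 8 libraries (4 residual degrees of freedom), and p-values were two-sided and adjusted by Benjamini-Hochberg over 14995 genes, with calls under 0.05. CPM are TMM-scaled. Depth limits single values: a floor of 3 counts is 0.129 to 0.168 CPM per library, and covers counting error only.

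Alternatives were DESeq2 1.42.0, limma 3.58.1 on log2 CPM (prior count 2) and on log2 FPKM, RLE scaling, other filters, a replicate block, an offset for gene length and each library left out. Sums of the copies of NCF1, MT-ND2 and ITGB1 were added after the data were seen, and that of EIF3C and EIF3CL was planned. Named genes were EIF3CL, EIF3C, the 10 of smallest p per direction with a symbol and at least 5 CPM in a group, called or most abundant list members, and 8 fixed genes; others are said to be chosen after their values were seen, as were the mitochondrial mRNAs, MT-RNR2, CYBB and NCF4. Not every gene examined is reported here. The genes, the 28 lists and the tests were chosen with earlier results of these data known. Sequences and positions came from GENCODE 29 on GRCh38, which may differ from the authors' annotation. The test script was checked on simulated data.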

Additional observations from a re-analysis of the deposited data

Results flagged for a closer look

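EIF3CL was marked because the effect of LAA differed between cells with and without ATRA by a test of that difference itself, with an adjusted p of 0.00106 in edgeR. LAA and vehicle libraries overlapped (33.4 and 15.4 against 22.5 and 34.3 CPM), while LAA+ATRA stood at 30.7 and 37.9 CPM against 0 and 0 with ATRA. The sum of EIF3CL and its copy EIF3C had an interaction of 0.07 ± 0.16. That sum is mostly EIF3C, so it cannot show whether EIF3CL itself changed.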

How the results depend on the processing

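The number of genes called was 1 in the other count fits not named here; DESeq2 called 13 (9 positive, 4 negative), no filter 136 (74 positive, 62 negative), limma on log2(FPKM + 1) 2, on log2(FPKM + 0.1) 3, and the sum of EIF3C and EIF3CL 0. Leaving out 1 library gave from 1 to 15 calls: 15 without ATRA replicate 1, 4 without ATRA replicate 2 and 1 otherwise. The cause was not tested. EIF3CL was called in all fits but log2(FPKM + 1) (4.011, adjusted p = 0.122 in limma) and the summed copies (0.068, adjusted p = 1 in edgeR), and left-out libraries gave 12.198 to 13.302. EIF3C was positive in both FPKM fits (0.062 each) and ran from -0.253 to 0.05 with a library left out. The sum, which is mostly EIF3C and so no test of EIF3CL alone, ran from -0.073 to 0.231 with a library left out.

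Of the 56 other genes followed, the direction turned on log2(FPKM + 1) for RARB (-0.015), CD38 (-0.23) and CSF3R (0.112), and on log2(FPKM + 0.1) for CSF3R (0.119) and HIC1 (0.043). With a library left out it turned for some genes, which then ranged from -0.092 to 0.246 (CD38), -0.093 to 0.277 (RARA), -0.719 to 0.718 (TET1), -0.037 to 0.111 (PCNA), -0.573 to 0.097 (GSTO1) and -0.225 to 0.062 (CSF3R). Without ATRA replicate 1, edgeR also called S100A9, MT-ND6, MTND2P28, CDT1 and MT-ATP8. The NADPH oxidase median was -0.351 and -0.367 in the FPKM fits and from -0.367 to -0.22 with a library left out.

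Replicate numbers carry no stated meaning. The deviations of same-numbered libraries had correlations from -0.172 to 0.111 between groups. These cannot show whether the numbers pair samples, since each group gives only the difference of its 2 libraries. The replicate block called 1 gene, EIF3CL (12.65, adjusted p = 0.00171 in edgeR). With 2 libraries per group, interactions of most genes are smaller than their standard error, and levels near the floor of 3 counts carry no fold.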
